A study of Mus musculus with 19 samples.

Results

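A set of 6 genes that build, load and process the contents of the lamellar body was followed: *Abca3*, *Lamp3*, *Slc34a2*, *Lpcat1*, *Napsa* and *Ctsh*. They were picked by symbol for this role, with earlier results of these data known. All 6 of 6 were found among the 53558 genes of the deposited tables and among the 13986 genes that passed the filter on low counts. Lung tumors had been initiated in mice that carry, among their alleles, a Cre-activated tdTomato reporter and a Cre-activated Cas9. Every group shared the same alleles and differed in the guides of the intratracheal lentivirus. Lenti-sgInert/Cre carried the guides sgNeo1, sgNT and sgNeo2, which target no functional gene (7 libraries, 3 of females and 4 of males). Lenti-sgCebpa/b/d/Cre carried guides against the C/EBP transcription factors *Cebpa*, *Cebpb* and *Cebpd* (7 libraries, 4 of females and 3 of males). Lenti-sgLkb1/Cre carried a guide against *Lkb1*, listed as *Stk11* (5 libraries, all of females). Tumors had grown for 17 weeks in each group, and the labels give no age. Live cells negative for CD45, CD31, F4/80 and Ter119 were sorted, so that every infected cell type that survives this gate could be present.

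Alveolar type II cells make pulmonary surfactant, a film of phospholipid and surfactant proteins that lowers surface tension in the alveolus. It is assembled in the lamellar body, a lysosome-related organelle. Phosphatidylcholine is made and remodelled at the endoplasmic reticulum, where LPCAT1 adds palmitate to lysophosphatidylcholine to give the dipalmitoylated form. ABCA3, in the limiting membrane of the organelle, pumps the lipid inside. The acid proteases napsin A (*Napsa*) and cathepsin H (*Ctsh*) cut the precursors of surfactant proteins B and C there. LAMP3, also called DC-LAMP, is a membrane glycoprotein of the lamellar body that in humans also marks mature dendritic cells. SLC34A2 (NaPi-IIb) carries sodium and phosphate across the apical membrane and takes up phosphate freed from surfactant phospholipid. C/EBP factors and the kinase LKB1 are both known in the lung for their part in alveolar type II differentiation.

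The genes lie on 6 chromosomes of GRCm38 (mm10). *Abca3* spans chr17:24351950-24410201 on the plus strand. *Slc34a2* spans chr5:53038081-53071664, *Lpcat1* chr13:73467197-73516422, *Napsa* chr7:44572380-44586862 and *Ctsh* chr9:90054152-90076089, all on the plus strand. *Lamp3* spans chr16:19653378-19706375 on the minus strand. Genes annotated on the opposite strand overlap *Abca3* (*Gm25618* and *D330041H03Rik*), *Slc34a2* (*Gm17182*) and *Napsa* (*Gm15396*). Whether strand entered the counting is not given in the sources used here, so reads of these pairs may not be told apart. RSEM's own posterior standard deviation was at most 1.37% of the count for any of the 6 genes in any library.

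Promoters of 4 genes were at hand from RefSeq (GRCm38.p6, 250 bases before and 50 after the start). They belong to the 4 genes that were lower in sgCebpa/b/d libraries below, and are shown to let the reader see which of them carry the letters bound by C/EBP factors. Capitals mark each match to the motifs searched on both strands, which were TTNNGNAA and its perfect palindrome TTGCGCAA for C/EBP, TGATGCAA for C/EBP-ATF, CTCAAG for NKX2-1, TGTTTAC for FOXA, TGACGTCA for CREB and its shorter form TGACG.
Abca3 promoter, chr17:24351773-24352072, plus strand: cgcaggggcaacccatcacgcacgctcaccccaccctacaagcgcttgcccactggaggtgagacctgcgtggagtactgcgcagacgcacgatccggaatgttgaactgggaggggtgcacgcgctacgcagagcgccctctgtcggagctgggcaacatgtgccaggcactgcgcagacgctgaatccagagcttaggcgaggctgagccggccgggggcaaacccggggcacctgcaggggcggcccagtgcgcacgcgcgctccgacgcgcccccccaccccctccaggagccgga
Lamp3 promoter, chr16:19706316-19706615, minus strand: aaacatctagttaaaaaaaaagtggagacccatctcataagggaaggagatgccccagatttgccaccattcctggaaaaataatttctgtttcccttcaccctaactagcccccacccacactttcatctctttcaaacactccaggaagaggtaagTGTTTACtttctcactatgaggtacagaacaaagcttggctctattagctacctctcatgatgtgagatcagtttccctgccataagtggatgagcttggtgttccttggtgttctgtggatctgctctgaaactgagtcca
Slc34a2 promoter, chr5:53049103-53049402, plus strand: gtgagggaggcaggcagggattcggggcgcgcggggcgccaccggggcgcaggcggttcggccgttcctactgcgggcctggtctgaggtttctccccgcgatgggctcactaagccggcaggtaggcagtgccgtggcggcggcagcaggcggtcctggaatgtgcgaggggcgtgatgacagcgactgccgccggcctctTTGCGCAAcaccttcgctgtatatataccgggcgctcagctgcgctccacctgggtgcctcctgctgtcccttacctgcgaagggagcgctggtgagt
Lpcat1 promoter, chr13:73466981-73467280, plus strand: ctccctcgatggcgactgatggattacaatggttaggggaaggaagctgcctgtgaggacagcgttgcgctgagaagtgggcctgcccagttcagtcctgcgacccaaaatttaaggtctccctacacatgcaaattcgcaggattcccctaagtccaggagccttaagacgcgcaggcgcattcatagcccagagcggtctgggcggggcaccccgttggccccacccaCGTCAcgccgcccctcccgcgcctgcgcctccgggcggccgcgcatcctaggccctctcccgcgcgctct

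The palindrome stood once, in the *Slc34a2* promoter, starting 48 bases before the start site. It was held by 60 of all 32851 promoters of this length (0.183%), while the looser TTNNGNAA, which includes it, was held by 40.7%. This *Slc34a2* start lies inside the annotated gene, downstream of its first annotated start. The *Abca3* promoter held none of the 7 motifs, and 69.7% of its bases were G or C, against a median of 52.7% over all promoters. *Lamp3* held TGTTTAC 92 bases before its start, as did 3.65% of promoters anywhere in the window. *Lpcat1* held TGACG on the reverse strand (20.8% of promoters). CTCAAG, TGATGCAA and TGACGTCA, held by 15.9%, 0.895% and 1.79% of promoters, matched none of the 4. These letters describe windows of 300 bases, and no binding was measured.

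The 6 transcripts were abundant in tumor cells of every group. Per length, in the deposited TPM (transcripts scaled by length to a fixed total), the sgInert libraries ordered them *Slc34a2* (4283 ± 287, SD, n = 7), *Lamp3* (2389 ± 433), *Ctsh* (1493 ± 238), *Lpcat1* (518 ± 47.1), *Napsa* (422 ± 74.9) and *Abca3* (202 ± 22.7). *Lpcat1* and *Napsa* were the neighbours in this order whose sgInert libraries overlapped (465 to 583 TPM and 288 to 501 TPM). In sgCebpa/b/d libraries *Lamp3* (547 to 1712 TPM) also overlapped *Ctsh* (735 to 1707 TPM), and its mean of 1213 TPM stood below the 1298 TPM of *Ctsh*. In sgLkb1 libraries these 2 overlapped as well (1361 to 1848 TPM and 1248 to 1586 TPM). *Slc34a2* led and *Abca3* closed the order of means in each group. The 6 TPM values summed to 8285 to 10551 in the sgInert group, 3600 to 8521 with the C/EBP guides and 7098 to 9635 with the guide against *Lkb1*.

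Libraries held 2760731 to 9944134 estimated counts. *Stk11* was 1.24 lower on the log2 scale in sgLkb1 than in sgInert libraries (edgeR adjusted p = 1.07e-04), without overlap, whereas *Cebpa* was 0.73 higher in sgCebpa/b/d libraries. A guide makes small insertions and deletions that need not lower its target's transcript, so the level of *Cebpa* does not check that label. The titles of 10 libraries bear an MT animal number, those of 4 sgInert libraries a ZR number, and those of sgCebpa/b/d replicates 5, 6 and 7 (all the males of that group) and of sgLkb1 replicates 1 and 5 none. The 4 numbered sgCebpa/b/d libraries came from 2 mice, 1 of which gave 3 of them, the 3 numbered sgLkb1 libraries also came from 2 mice, and the 7 sgInert libraries came from 6. Thus n counts libraries, and all p-values, exact ones included, may be too small. The 3 unnumbered sgCebpa/b/d libraries lay below the other 4 in 5 of the 6 genes, all but *Napsa*, and the calls among the 6 genes against sgInert are therefore also given without libraries of this kind. Sex and title series cannot be told apart within sgCebpa/b/d. In sorted bulk cells, fewer cells of a type and less RNA per cell cannot be told apart either.

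What the 3 C/EBP guides did to these genes was asked by comparing sgCebpa/b/d with sgInert tumor cells. *Abca3*, *Lamp3*, *Lpcat1* and *Slc34a2* were lower in every sgCebpa/b/d library than in any sgInert library, and *Napsa* and *Ctsh* were not. Thus 4 of 6 passed the edgeR test in the lower direction (adjusted p under 0.05 over all genes tested), as did 5.36% of all genes. The same 4 of 6 had groups without overlap, as did 2.09% of all genes in this direction. *Abca3* and *Lamp3* passed with a log2 fold change below -1, as did 2.00% of all genes. All 6 fold changes were below 0, against 47.6% of genes, and their median was -0.50 against 0.02 over all genes tested.

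*Abca3*, the lipid pump, fell furthest. The sgInert libraries had 700 to 962 CPM (counts scaled to a fixed library total), with a median of 868 CPM, and the sgCebpa/b/d libraries had 237 to 454 CPM, with a median of 363 CPM. The highest sgCebpa/b/d library, replicate 2, had 454 CPM and lay well under the lowest sgInert library, replicate 3, at 700 CPM. The 4 numbered sgCebpa/b/d libraries had 363 to 454 CPM and the 3 unnumbered ones, lower again, 237 to 273 CPM. The level was 39.7% of that in sgInert (log2 fold change -1.33, SE 0.13, 95% interval -1.61 to -1.06, edgeR adjusted p = 7.59e-07). Its effective length, which RSEM averages over isoforms, varied by 15.7% between libraries, and the fold change was -1.30 with gene-length offsets.

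*Lamp3*, the membrane glycoprotein, came next. It ranged from 4699 to 6818 CPM in sgInert libraries (median 6315 CPM) and from 1623 to 3963 CPM in sgCebpa/b/d libraries (median 3333 CPM). The numbered sgCebpa/b/d libraries 1 to 4 had 3963, 3774, 3827 and 3333 CPM and the unnumbered 5, 6 and 7 had 1701, 2169 and 1623 CPM, so the group fell into an upper and a lower set that were both under sgInert. The fold change was -1.02 (SE 0.18, edgeR adjusted p = 7.92e-04). Because LAMP3 is also named as a marker of mature human dendritic cells, dendritic cell markers were summed. Whether mouse dendritic cells make *Lamp3* was not examined. The 6 dendritic markers summed to 6.29 to 11.2 CPM in sgInert, 3.79 to 19.7 CPM in sgCebpa/b/d and 4.23 to 10.05 CPM in sgLkb1 libraries. *Ccr7*, *Flt3* and *Ccl22* had at most 3 counts in each sgInert, sgLkb1 and numbered sgCebpa/b/d library, and reached 2.17, 0.67 and 2.20 CPM in the unnumbered ones.

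*Lpcat1*, the acyltransferase, moved less. The sgInert libraries had 1190 to 1446 CPM (median 1310 CPM) and the sgCebpa/b/d libraries 760 to 1076 CPM (median 942 CPM). The 4 numbered libraries had 942 to 1076 CPM and the 3 unnumbered ones 760 to 820 CPM, and all were under the lowest sgInert library. The fold change was -0.55 (SE 0.09, edgeR adjusted p = 3.51e-04), a level of 68.2%. *Slc34a2*, the phosphate carrier, had 12907 to 14358 CPM in sgInert libraries (median 13292 CPM) and 6526 to 12322 CPM in sgCebpa/b/d libraries (median 10439 CPM). The 4 numbered libraries, at 12322, 11984, 12000 and 10439 CPM, lay just under the sgInert range, and the 3 unnumbered ones, at 7097, 7921 and 6526 CPM, lay far below it. The fold change of *Slc34a2* was -0.45 (SE 0.13, edgeR adjusted p = 0.0321). Without any unnumbered library it was -0.20 (adjusted p = 0.249). The call was near the threshold and was also lost without any 1 of sgCebpa/b/d replicates 5, 6 and 7 or sgInert replicates 1 and 7, at fold changes of -0.45 to -0.38 (0.0514 to 0.0676).

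The proteases did not pass. *Napsa* had 314 to 534 CPM in sgInert libraries (median 462 CPM) and 265 to 395 CPM in sgCebpa/b/d libraries (median 355 CPM). Its groups overlapped, through the low sgInert replicate 2 (314 CPM), and the fold change of -0.36 (95% interval -0.60 to -0.12) had an edgeR adjusted p of 0.0532. The call was gained, at 0.0144, without that library, and at 0.0423 to 0.0487 without sgCebpa/b/d replicate 2 or 3 or sgLkb1 replicate 4. *Ctsh* had 1028 to 1639 CPM in sgInert libraries (median 1259 CPM) and 680 to 1387 CPM in sgCebpa/b/d libraries (median 1180 CPM). The 4 numbered sgCebpa/b/d libraries (1180 to 1387 CPM) lay within the sgInert range and the 3 unnumbered ones (680, 976 and 775 CPM) below it. The fold change of *Ctsh* was -0.25 (95% interval -0.54 to 0.05, edgeR adjusted p = 0.324), and 0.00 without unnumbered libraries.

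**Figure D1:**
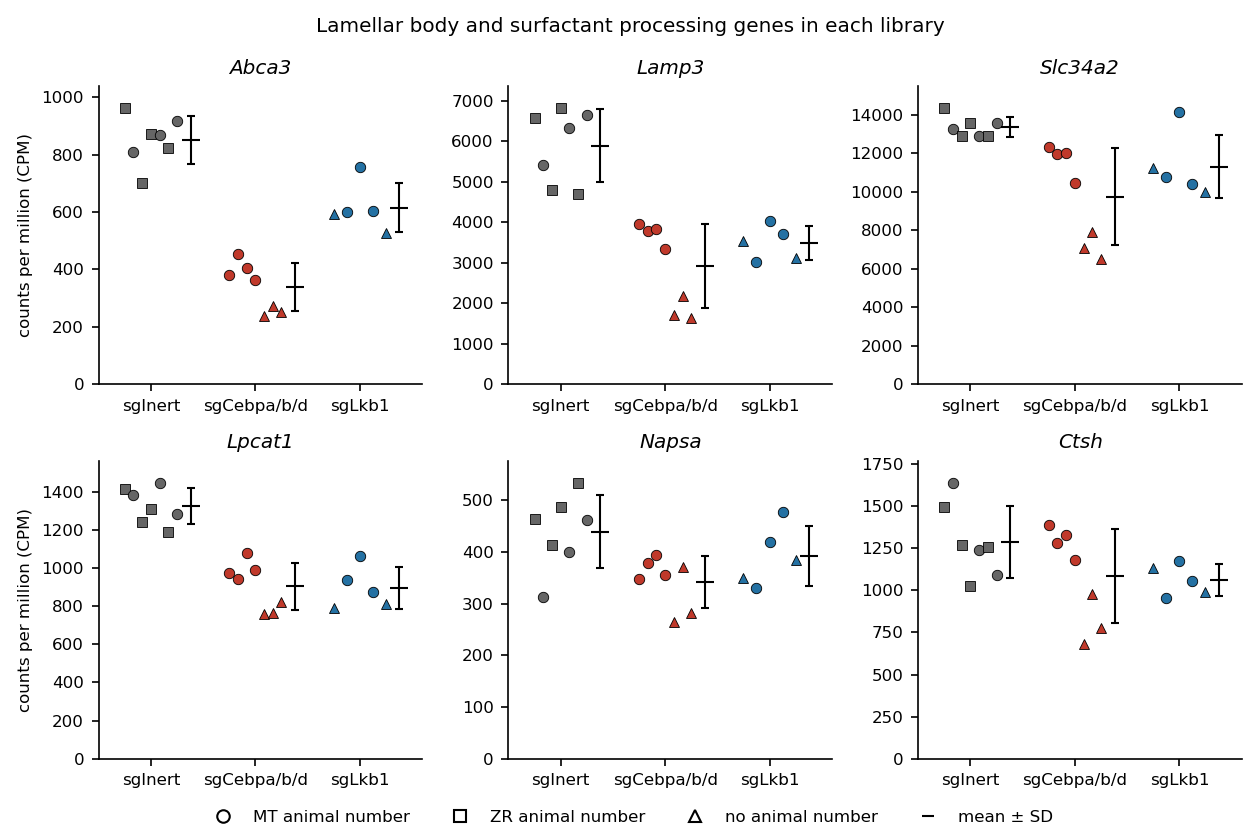
CPM (y axis, from 0) of each of the 6 genes in each of the 19 libraries, by virus group, with the marker shape giving the animal number series of the title and the bar the mean ± SD. In *Abca3*, *Lamp3*, *Slc34a2* and *Lpcat1* all sgCebpa/b/d points lie under all sgInert points, and the 3 triangles of that group lie under its other 4 points in *Abca3*, *Lamp3*, *Slc34a2*, *Lpcat1* and *Ctsh*.

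Within the MT-numbered libraries, 3 sgInert and 4 sgCebpa/b/d, 3 of 6 genes passed in the lower direction, as did 4.16% of all genes. *Abca3* was at -1.12 (adjusted p = 2.79e-05), *Lamp3* at -0.73 (8.98e-04) and *Lpcat1* at -0.47 (0.00528). *Slc34a2* was at -0.19 (0.344), *Napsa* at -0.10 (0.771) and *Ctsh* at -0.04 (0.895). With title series as a covariate the first 3 passed again and the other 3 did not, and *Slc34a2* was at -0.28 (0.256). *Abca3*, *Lamp3* and *Lpcat1* kept their call under each of the 13 other settings and in each of the 19 fits without 1 library.

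Markers of other cells moved with the groups. Alveolar type I markers summed to 398 to 593 CPM in sgInert libraries, against 678 to 1296 CPM with the C/EBP guides and 602 to 698 CPM with sgLkb1, and 4 of their 6 genes passed the edgeR test higher in sgCebpa/b/d than in sgInert, as did 4.73% of all genes. Against sgInert 2.81% of all genes passed higher in sgLkb1. Endothelial markers summed to 6.52 to 41.4 CPM, 15.5 to 214 CPM and 41.0 to 156 CPM in these groups (5 of 6 passed higher in sgCebpa/b/d, 1 of 6 in sgLkb1), and fibroblast markers to 10.7 to 142 CPM, 59.5 to 230 CPM and 94.5 to 244 CPM (2 of 6 passed higher in each). The unnumbered sgCebpa/b/d libraries had 154 to 214 CPM of endothelial and 88.4 to 122 CPM of macrophage and leukocyte markers, whereas in MT-numbered libraries the latter summed to 1.09 to 2.86 CPM with the C/EBP guides and 0.55 to 2.19 CPM in the sgInert group, with *Adgre1*, *Marco*, *Cd3e* and *Cd79a* at no more than 3 counts. The unnumbered sgLkb1 libraries, which are of females, had 90.2 to 156 CPM of endothelial and 40.9 to 120 CPM of macrophage and leukocyte markers. The MT-numbered sgLkb1 libraries had 41.0 to 85.4 CPM and 5.01 to 7.37 CPM of these. Among MT-numbered libraries the type I markers still summed to 678 to 924 CPM with the C/EBP guides against 398 to 450 CPM in sgInert, and the fibroblast markers to 59.5 to 223 CPM against 10.7 to 19.2 CPM, without overlap. The endothelial markers overlapped there, at 15.5 to 44.9 CPM with the C/EBP guides and 16.6 to 41.4 CPM in sgInert. The 6 markers of alveolar type II cells and lung epithelium summed to 31467 to 35326 CPM in sgInert libraries. They summed to 13254 to 24050 CPM with the C/EBP guides and 18250 to 24408 CPM with sgLkb1, without overlap with sgInert. Most of the sgInert sum was *Cxcl15* and *Sftpc* (medians of 16827 and 16185 CPM), so the sum mainly follows these genes. In both comparisons *Sftpc*, *Etv5* (-1.15 in sgCebpa/b/d and -0.68 in sgLkb1) and *Cxcl15* (-1.48 and -1.28) were the 3 of 6 that passed lower, with *Cxcl15* falling from 14002 to 17364 CPM in sgInert to 2574 to 8803 CPM and 5464 to 8986 CPM. *Epcam*, *Cdh1* and *Nkx2-1* did not pass, with fold changes of -0.01 to 0.23, and were detected in every library. The part of type I, endothelial, fibroblast and leukocyte RNA in the results was not tested.

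The same genes were compared between sgLkb1 and sgInert tumor cells, with the same control libraries. *Lamp3* and *Lpcat1* were lower in every sgLkb1 library than in any sgInert library, and the other 4 genes did not pass. Hence 2 of 6 passed in the lower direction, as did 2.97% of all genes, and the same 2 of 6 did not overlap, as did 2.00% of all genes. All 6 fold changes were below 0, against 51.4% of genes, with a median of -0.37 against -0.01 over all genes.

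*Lpcat1* had 788, 937, 1064, 875 and 813 CPM in sgLkb1 replicates 1 to 5. All 5 lay under the lowest sgInert library (1190 CPM), and the fold change was -0.56 (SE 0.10, edgeR adjusted p = 0.00165). This call held in each fit without 1 library, though not with limma on log2(TPM + 1), where it was -0.35 (adjusted p = 0.0892). *Lamp3* had 3529, 3025, 4031, 3696 and 3123 CPM. These were also all under the lowest sgInert library (4699 CPM), with a fold change of -0.76 (SE 0.20, edgeR adjusted p = 0.0287). The *Lamp3* call was near the threshold: it was lost at 0.0515 to 0.0846 without sgInert replicate 1, 4 or 7 or sgLkb1 replicate 1, 2, 4 or 5, at 0.146 with title series as a covariate and at 0.0621 with libraries of an animal summed. Each unnumbered library was kept as its own animal in that sum, though its title does not say which mouse it came from. Among MT-numbered libraries *Lamp3* was at -0.78 (9.77e-04) and *Lpcat1* at -0.53 (0.00448), and with *Abca3* 3 of 6 passed there, as did 3.30% of all genes.

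*Abca3* was intermediate in sgLkb1 libraries, with 591, 599, 758, 603 and 527 CPM. Replicate 3 (758 CPM) lay inside the sgInert range and the other 4 below it. The fold change was -0.47 (95% interval -0.77 to -0.17), with an edgeR adjusted p of 0.0616, and it was -0.42 (0.0461) within MT-numbered libraries but -0.37 (0.0938) without unnumbered libraries and -0.30 (0.253) with title series as a covariate. With animals summed it was at an adjusted p of 0.0984, and with limma on log2(TPM + 1) at -0.26 (0.431). Leaving out sgInert replicate 3, sgCebpa/b/d replicate 2 or 5 or sgLkb1 replicate 3 brought it under the threshold (0.0368 to 0.0455). *Slc34a2* had 11258, 10761, 14151, 10423 and 9982 CPM, 4 of them under every sgInert library and 1 above the sgInert median (-0.24, 95% interval -0.55 to 0.07, adjusted p = 0.415). *Ctsh*, at 1134, 956, 1175, 1054 and 988 CPM, and *Napsa*, at 349, 330, 419, 477 and 384 CPM, overlapped the sgInert libraries. Their fold changes were -0.28 (95% interval -0.61 to 0.05, adjusted p = 0.366) and -0.16 (-0.43 to 0.10, 0.553). The sgLkb1 group held females only. With sex as a covariate *Abca3* (-0.66, 0.00437) and *Slc34a2* (-0.45, 0.0493) passed as well. The sex term of that fit came from the other groups alone, and in sgCebpa/b/d it cannot be told apart from title series. Mean *Abca3* was 851 CPM in female and 850 CPM in male sgInert libraries, and 400 and 254 CPM in sgCebpa/b/d. For *Slc34a2* these means were 13261 and 13439 CPM, and 11686 and 7181 CPM.

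**Figure D2:**
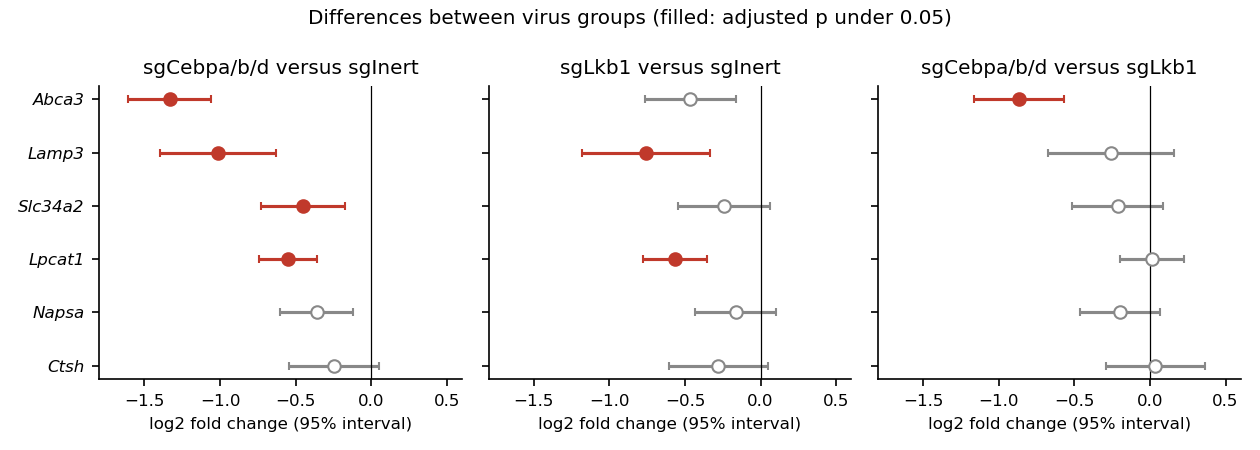
Log2 fold changes of the 6 genes (x axis) with 95% intervals from the edgeR fit in the 3 comparisons between groups, filled where the adjusted p over all genes was under 0.05. *Abca3* passes in sgCebpa/b/d against both other groups, *Lpcat1* lies at -0.55 and -0.56 against sgInert in the 2 targeted groups, and *Napsa* and *Ctsh* pass nowhere.

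The targeted groups were then compared with each other directly. *Abca3* differed: all 7 sgCebpa/b/d libraries (237 to 454 CPM) were below all 5 sgLkb1 libraries (527 to 758 CPM), a fold change of -0.87 (SE 0.14, edgeR adjusted p = 4.83e-04), and -0.72 (0.00348) without unnumbered libraries. It was the 1 of 6 that passed, as did 3.12% of all genes in the lower direction, and the 1 of 6 without overlap (2.87%). No difference was detected for *Lpcat1* (0.01, 95% interval -0.20 to 0.22), *Ctsh* (0.03, -0.29 to 0.36), *Napsa* (-0.20, -0.46 to 0.07), *Slc34a2* (-0.21, -0.52 to 0.09) or *Lamp3* (-0.26, -0.67 to 0.16). These intervals leave room for differences of that size. In a test across the 3 groups at once, *Abca3* (adjusted p = 2.15e-06), *Lpcat1* (2.08e-04) and *Lamp3* (0.00120) passed, 3 of 6 against 13.4% of all genes, while *Slc34a2* (0.0649), *Napsa* (0.105) and *Ctsh* (0.351) did not.

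Whether the C/EBP effect differed between females and males was tested as an interaction. *Slc34a2* was the 1 of 6 that passed, as did 0.186% of all genes: its fold change was -0.19 in females and -0.90 in males, a difference of 0.72 (SE 0.13, edgeR adjusted p = 0.0441). The male sgCebpa/b/d libraries are the 3 unnumbered ones with the endothelial and leukocyte markers given above. *Lamp3* had the larger difference, 0.89 (-0.74 in females and -1.63 in males), with an edgeR adjusted p of 0.0963. This p fell to 0.00367 when no filter on low counts was applied, a fit in which 1.25% of all genes passed. For the other 4 genes the difference was 0.24 to 0.65, with adjusted p from 0.144 to 0.557.

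**Figure D3:**
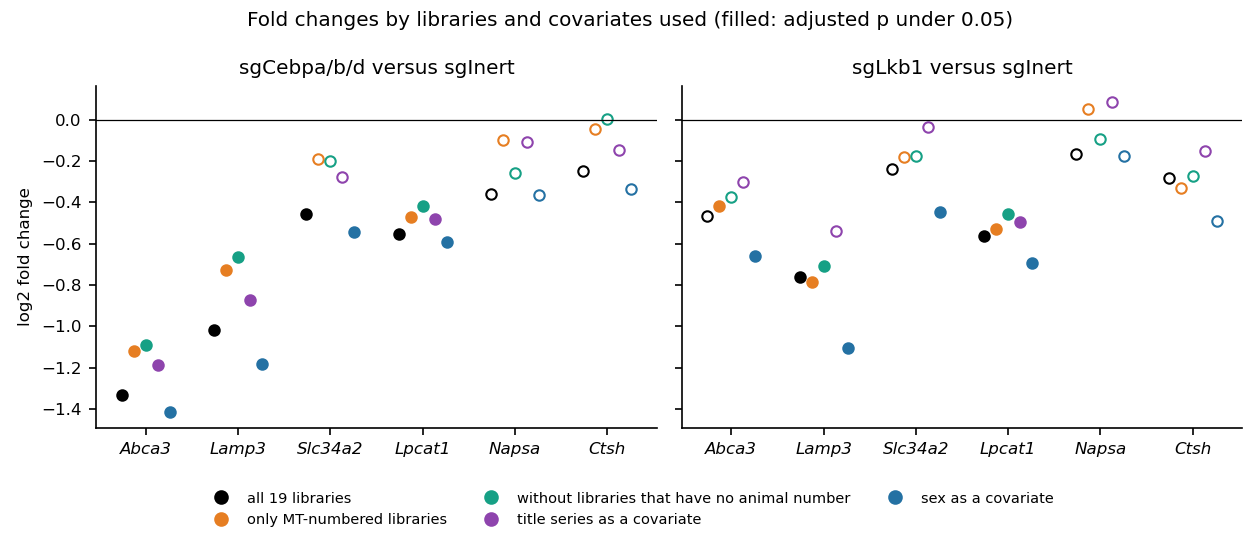
Log2 fold changes (y axis) of the 6 genes against sgInert when other libraries or covariates entered the fit, filled where the adjusted p was under 0.05. In sgCebpa/b/d *Abca3*, *Lamp3* and *Lpcat1* stay filled throughout and *Slc34a2* moves from -0.45 to -0.19 when only MT-numbered libraries are used. In sgLkb1 whether the points of *Lamp3*, *Abca3* and *Slc34a2* are filled depends on the libraries or the covariate.

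The genes were also set against *Sftpc*, the transcript of surfactant protein C. *Sftpc* itself was at 13271 to 17448 CPM in sgInert libraries, against 9638 to 14616 CPM with the C/EBP guides and 10821 to 14110 CPM with sgLkb1, with fold changes of -0.31 (adjusted p = 0.0458) and -0.39 (0.0324). Neither call held throughout: in sgCebpa/b/d *Sftpc* was at -0.20 (0.265) without unnumbered libraries and -0.12 (0.597) in MT-numbered ones. In sgLkb1 it was at -0.39 (0.0459) and -0.33 (0.109), and with title series as a covariate or animals summed neither passed (0.0586 to 0.537). A log2 ratio to *Sftpc* within a library does not depend on how libraries are scaled, and 12 such ratios were tested with 2-sided exact permutation tests. *Abca3* fell by 1.05 relative to *Sftpc* in sgCebpa/b/d (exact permutation p = 5.83e-04, the smallest this design can give, and 0.00699 after Benjamini-Hochberg adjustment over the 12), in 7 of 7 libraries below every sgInert library. *Lamp3* fell by 0.77 (0.00175 and 0.0105, 6 of 7 libraries). *Lpcat1* fell by 0.24 (0.0122 and 0.0490, 5 of 7 libraries), a call that was lost in 9 of the fits without 1 library (adjusted p 0.0606 to 0.0909). The ratios of *Slc34a2* (-0.18), *Napsa* (-0.04) and *Ctsh* (0.05) did not pass, at adjusted exact permutation p of 0.235, 0.747 and 0.747. Within MT-numbered libraries the *Abca3*, *Lamp3* and *Lpcat1* differences were -1.01, -0.60 and -0.35, each with an exact permutation p of 0.0286, the smallest that 3 against 4 libraries allow. These 4 libraries came from 2 mice, so exchanging libraries treats those of 1 mouse as independent, and over mice no such p could be reached. In sgLkb1 0 of 6 ratios passed the adjusted exact permutation test. *Lamp3*, at -0.36, had an unadjusted exact permutation p of 0.0227 (0.0682 adjusted), and *Abca3* was at -0.07 (0.644 adjusted).

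Over the 19 libraries the 6 genes rose and fell together, with Pearson's r of log2 CPM between 0.42 (*Napsa* and *Ctsh*) and 0.93 (*Lamp3* and *Slc34a2*), a median of 0.73 over the 15 pairs. These are descriptions, since all pairs share the libraries and the group differences. With group means removed the pairs lay between 0.20 and 0.92. Without unnumbered libraries the median was 0.46 and the lowest pair, *Napsa* with *Ctsh*, was at -0.27, whereas *Lamp3* with *Lpcat1* was at 0.90.

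Of 11082 genes ranked by their correlation with the mean z-score of the 6, *Cxcl15*, the chemokine lungkine, came first (r = 0.98 over 19 libraries, 0.95 without unnumbered libraries). It was followed by *H6pd* (0.96), *Gm43085* (0.95), *Ctsc* (0.95), *Mlc1*, *Ppib*, *P4hb*, *Cd36*, *Met* and *Hdc* (0.93 to 0.94). *Ppib* and *P4hb* encode folding enzymes of the endoplasmic reticulum, *Cd36* a fatty acid carrier and *Met* the receptor of hepatocyte growth factor. The lowest were *Mprip* (-0.93), *Hopx* (-0.92) and *Gm37352* (-0.91), of which *Hopx* is a type I cell gene that was 1.86 higher in sgCebpa/b/d libraries (adjusted p = 1.22e-04).

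Other genes of the pathway were taken from 9 lists of 90 genes, of which 77 were tested. In sgCebpa/b/d against sgInert 11 of 77 passed lower, beside 5.36% of all genes, and 0 higher, beside 4.73%, by edgeR (0 higher also by DESeq2, and 1 higher at an unadjusted p under 0.05). In sgLkb1 against sgInert 8 of 77 passed lower, beside 2.97% of all genes, and 1 higher, beside 2.81% (3 higher by DESeq2, and 9 at an unadjusted p under 0.05). Without unnumbered libraries 6 of these 11 calls (*Fasn*, *Scd1*, *Npc1*, *Npc2*, *Ctsc* and *Ctsd*) and 3 of these 9 (*Sftpa1*, *Sftpc* and *Ctsc*) passed again, and all kept their direction. Within MT-numbered libraries 8 and 5 did. Phospholipid synthesis and remodelling gave 5 of 16 lower in sgCebpa/b/d, with a list median of -0.42. *Scd1*, the stearoyl-CoA desaturase, had 7714 to 14999 CPM in sgInert and 2363 to 5075 CPM in sgCebpa/b/d libraries (-1.68, adjusted p = 7.59e-07), and *Fasn*, the fatty acid synthase, fell by 0.93 on the log2 scale (6.99e-05). Against sgLkb1 libraries both were lower as well, at -2.21 and -0.99 (1.38e-07 and 1.31e-04). In sgLkb1 1 of 16 passed, *Pcyt1a*, the rate-limiting enzyme of phosphatidylcholine synthesis, at -0.85 (0.0177), and the list median was -0.04. *Lpcat3* and *Lpcat4*, which share the enzyme name of *Lpcat1*, did not pass in either comparison with sgInert.

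In the recycling list *Npc1*, a lysosomal cholesterol exporter, was lower in both targeted groups (-1.13 in sgCebpa/b/d, adjusted p = 1.66e-06, and -0.68 in sgLkb1, 0.00272), and *Npc2* was lower in sgCebpa/b/d (-0.49, 5.79e-04). Among the 10 lysosomal proteases tested *Ctsc* was lower in both (-0.81, 0.00192, and -0.61, 0.0466), *Ctsd* in sgCebpa/b/d (-0.65, 0.00213), and *Ctsl* was higher in sgLkb1 (0.49, 0.0158). *Lamp1*, the general lysosomal relative of *Lamp3*, was 1 of 7 lysosomal membrane genes to pass in sgCebpa/b/d (-0.42, 0.0124), and 0 of 7 did in sgLkb1 by edgeR or DESeq2 (2 at an unadjusted p under 0.05). *Lamp2* did not pass in either (-0.18 and -0.23). Of the surfactant proteins, *Sftpc* passed in sgCebpa/b/d, and *Sftpc*, *Sftpd* and *Sftpa1* passed in sgLkb1. *Sftpa1* was at 8540 to 13251 CPM there against 17581 to 26284 CPM in sgInert (-1.08, 0.00310), and differed between the targeted groups by 0.75 (0.0361).

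The lists of the machinery around the organelle are short, so that 0 calls in one of them is no result at the shares of all genes given above. Of 14 biogenesis and traffic genes 0 passed in sgCebpa/b/d by edgeR or DESeq2, with 2 at an unadjusted p under 0.05. In sgLkb1 *Hps5*, of a complex that sorts cargo to lysosome-related organelles, was lower (-0.55, adjusted p = 0.00845), as was *Lyst*, the Chediak-Higashi gene (-0.57, 0.0243). Of 12 exocytosis genes 0 passed in either comparison with sgInert by edgeR or DESeq2, with 1 in each at an unadjusted p under 0.05. Of the 5 other ABCA transporters tested, 0 passed in sgCebpa/b/d by either tool (1 at an unadjusted p under 0.05), and *Abca5*, the lowest, was at -0.36 (0.131). Likewise *Slc20a1* and *Slc20a2*, the phosphate carriers tested beside *Slc34a2*, were at -0.16 (0.774) and 0.40 (0.273).

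**Figure D4:**
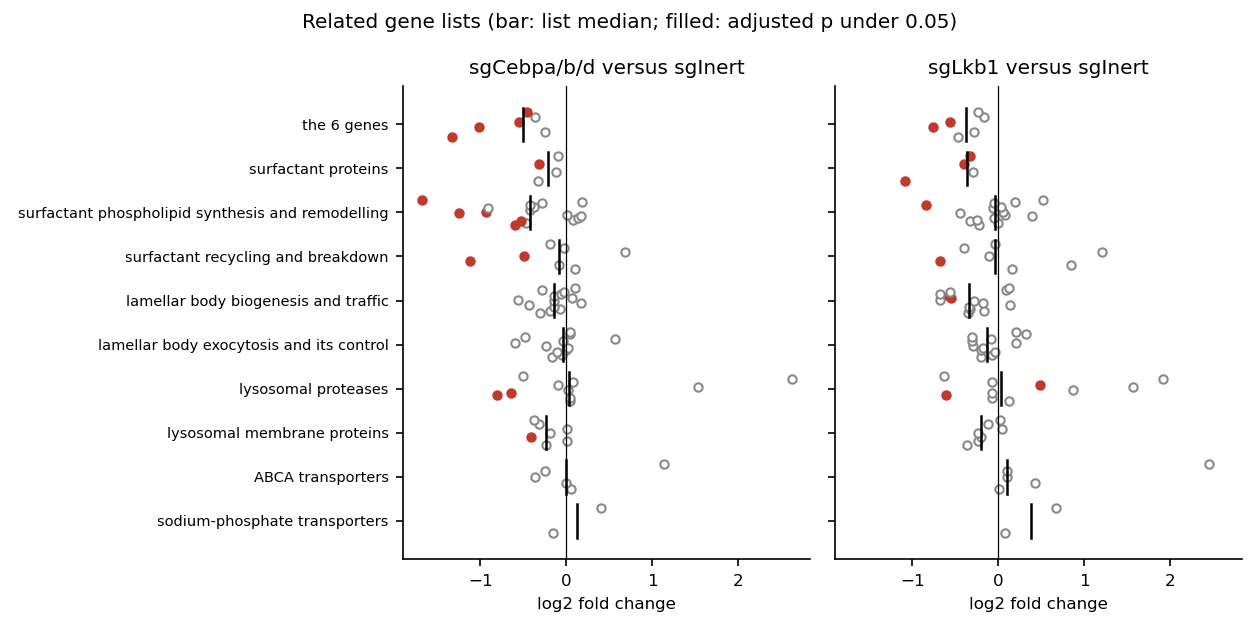
Log2 fold change (x axis) of each tested gene of the 6 genes and the 9 related lists against sgInert, filled where the adjusted p was under 0.05, with a bar at the list median. Beside 4 of the 6 genes, the lower calls of sgCebpa/b/d are 1 of the 4 surfactant proteins and phospholipid synthesis, recycling and lysosomal genes. Those of sgLkb1 include 3 of the 4 surfactant proteins.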

How the data were processed

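RNA of sorted lung tumor cells was measured in 19 mouse libraries. Per the labels and methods, the authors prepared Trio RNA-Seq libraries, aligned paired reads with STAR 2.6.1d to mm10 and estimated genes with RSEM 1.2.30. The deposited expected counts are RSEM's unnormalized estimated counts, and the deposited TPM values are scaled by length to a fixed total. RSEM's effective lengths and its posterior score of count error (a standard deviation) were deposited beside them. The authors' DESeq2 fold changes and normalized tables were not used here.

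Counts were rounded, filtered with filterByExpr (minimum count 10, minimum total count 15), scaled by TMM and tested with edgeR 4.0.16 (R 4.3.3) quasi-likelihood tests in 1 model of all 19 libraries, adjusted by Benjamini-Hochberg over 13986 genes. The adjusted p printed beside a fold change is from this test. SE is the fold change divided by the square root of F. CPM uses TMM-scaled totals. Limma 3.58.1 and DESeq2 1.42.0 were alternatives. Ratios used a pseudocount of 0.5 and scipy 1.17.1. The procedure was tested on simulated counts. Depth was 2760731 to 9944134 counts a library, and the lowest count of any of the 6 genes was 959 (*Napsa*), so counting error was small beside the spread between libraries. No pair of replicates differed by less than sampling noise (chi-square per gene at least 6.45 over 52 pairs).

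Groups, replicate numbers and sex came from the labels. The members and lists were chosen with earlier results of these data known, so their counts beside the shares of all genes are descriptions. Named genes are the 6 members, up to 2 genes with the smallest p per list and comparison with sgInert, the targeted genes, and the genes most and least alike. *Acsl4*, *Cds2*, *Fabp5* and others outside that rule are counted, and *Sftpd*, *Lpcat3*, *Lpcat4*, *Lamp2*, *Abca5*, *Slc20a1* and *Slc20a2*, the marker genes and values between the targeted groups were named after their values were seen. Coordinates are from GENCODE vM21 (GRCm38). A further allele that the mice of all groups carry is not reported here.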

Additional observations from a re-analysis of the deposited data

Results flagged for a closer look

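*Slc34a2* responded differently to the C/EBP guides in the 2 sexes: the log2 fold change was -0.19 in females and -0.90 in males, a difference of 0.72 (SE 0.13, edgeR adjusted p of the interaction = 0.0441). All 3 male sgCebpa/b/d libraries have no animal number in their titles and all 4 female ones do, so sex and title series cannot be told apart. Of 18 sets of libraries of 1 gene in 1 group, 0 held a library flagged by Dixon's test. That test sets the gap between the lowest or highest library and its neighbour against the range. It looks for 1 library far from the others, and cannot flag several low libraries together, such as the 3 male sgCebpa/b/d ones.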

How the results depend on the processing

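Depth was ample for these abundant genes, and the limits lie in the few mice, the shared control libraries and the title series. In sgCebpa/b/d against sgInert, 3 to 5 of the 6 genes passed under every alternative and in every fit without 1 library (main 4), and the count of all genes passed was 926 with title series as a covariate and 875 without unnumbered libraries, against 1412. In sgLkb1 against sgInert the main 2 of 6 became 0 with limma on log2(TPM + 1) or log2(TPM + 0.1) (2 at an unadjusted p under 0.05 on either scale, and 3 adjusted by DESeq2), 4 with sex as a covariate and 1 with title series as a covariate or with libraries of an animal summed, and 1 to 3 without 1 library. The 9 list genes there became 5 (log2(TPM + 0.1)), 3 (gene-length offsets), 15 (sex), 3 (without unnumbered libraries) and 5 (animals summed), or 4 to 10 without 1 library, where 5 was without sgLkb1 replicate 4 and 4 without replicate 5. All genes passed, 809, became 1258 (sex), 528 (without unnumbered libraries) and 533 (animals summed), or 539 to 886 without 1 library, 539 being without sgLkb1 replicate 5. Between the targeted groups 1 of 6 passed throughout, the 8 list genes became 4 (animals summed) or 5 to 9 without 1 library (5 without sgLkb1 replicate 3), and the 833 genes passed became 450 (without unnumbered libraries) and 470 (animals summed). Fewer libraries entered the fits without unnumbered libraries or with animals summed. In the 10 MT-numbered libraries alone, 1159 genes passed in sgCebpa/b/d against sgInert, 949 in sgLkb1 against sgInert and 931 between the targeted groups. The cause of these changes in counts was not tested.

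On TPM the median fold change of all genes moved from -0.01 to 0.18 in sgLkb1 against sgInert (783 higher and 148 lower, against 393 and 416 on counts) and from 0.03 to -0.15 between the targeted groups (162 and 805, against 396 and 437). Fold changes of the 6 genes on TPM are given as fitted, with no median subtracted, and are to be read beside those medians.

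Fold changes that turned sign were all from values that did not pass. *Ctsh* in sgCebpa/b/d was 0.0014 without unnumbered libraries. *Napsa* in sgLkb1 was 0.0449 and 0.0450 on log2(TPM + 1) and log2(TPM + 0.1), 0.0501 in MT-numbered libraries and 0.0881 with title series. Between the targeted groups *Lamp3* was 0.0566 in MT-numbered and 0.0421 without unnumbered libraries, *Ctsh* was -0.2144 and -0.2146 on the 2 TPM scales and -0.0858 with animals summed, and *Lpcat1* was -0.1566 and -0.1570 on these scales, -0.0118 without a filter, -0.0000 with only the 2 groups compared and -0.0119 with animals summed. Without 1 library *Ctsh* there ranged from -0.0338 to 0.1213 and *Lpcat1* from -0.0416 to 0.0819. Of the ratios to *Sftpc*, 0 passed after adjustment within MT-numbered libraries (main 3), where the design cannot reach it (3 had the smallest exact p), and the ratio of *Napsa* was 0.0387 there. In sgLkb1 0 to 1 ratios passed without 1 library (main 0), namely *Lamp3* without sgInert replicate 3 or 6. In the sex interaction 2 of the 6 genes passed without a filter (main 1), as did 1.25% of all genes (main 0.186%).

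Replicate numbers did not pair the samples: 2 of 17 same-numbered pairs had a correlation of deviations over 0.1, and 3 of 19 libraries correlated best with their own number. A fit with the replicate block gave 4, 3 and 1 of the 6 genes in the 3 comparisons, 11, 9 and 5 list genes, and 1293, 873 and 661 genes in all.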
